A study of Arabidopsis thaliana with 72 samples.

Results

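The genes described here are 10 Arabidopsis thaliana loci of sulfur deficiency and sulfate reduction. Their list was chosen with earlier results of these data known, so shares of all genes set beside its counts are descriptions. The genes were taken by locus identifier from the 27206 loci of a count table of whole-seedling RNA. They are SDI1 (AT5G48850), SDI2 (AT1G04770), LSU1 (AT3G49580), LSU2 (AT5G24660), APR1 (AT4G04610), APR2 (AT1G62180), APR3 (AT4G21990), SULTR1;1 (AT4G08620), SULTR4;2 (AT3G12520) and BGLU28 (AT2G44460). The seedlings were wild-type Col-0 or the phr1 phl1 mutant, by its name a loss of PHR1 and PHL1, MYB factors that switch on genes when phosphate is short. Seeds of both spent 7 days on Johnson medium that held phosphate (Pi) at 1 mM, and the seedlings were then moved for 12 days to 1 mM Pi (high Pi) or to medium without added Pi, about 5 µM (low Pi). Both media were used untreated, with 10 µM methyl jasmonate (MeJA), a jasmonate hormone, or with 1 µM flg22, a peptide of bacterial flagellin that plants perceive as a sign of bacteria. Sucrose was at 1% throughout, and the labels name no mutant alleles. The 12 groups had 6 biological replicates each, 3 from each of 2 independent experiments, here A and B, so that both agents had been in the medium for the whole period after transfer.

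Plants take up sulfate through SULTR transporters, activate it with ATP to adenosine phosphosulfate, and reduce that compound to sulfite with the APR reductases in plastids. Sulfite is reduced further to sulfide and built into cysteine, from which methionine and glutathione derive, and the APR step is regarded as a main point of control. When sulfate runs short, plants raise a set of genes that includes SDI1, SDI2, the LSU genes, the high-affinity transporter SULTR1;1, the vacuolar sulfate exporter SULTR4;2 and BGLU28, so that these transcripts are used as a readout of sulfur status. In Arabidopsis PHR1 also acts on sulfate transporter genes under phosphate shortage, which makes the mutant a point of comparison for this gene set.

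The genes were placed on the TAIR10.1 annotation, and the 250 bases before the annotated gene start were read from that assembly (RefSeq) for all 10. The promoters of 3 members are shown: SDI1, which fell at low Pi and holds a sulfur-responsive element core (SURE core, GAGAC on either strand, in capitals); APR2, the most abundant member, which fell and holds none; and SULTR1;1, which was not called at low Pi in the 71-library fit and holds none. The stretches are chr5:19807854-19808103 (minus strand), chr1:22977886-22978135 (minus strand) and chr4:5500063-5500312 (plus strand), each written 5′ to 3′ toward the gene.
SDI1: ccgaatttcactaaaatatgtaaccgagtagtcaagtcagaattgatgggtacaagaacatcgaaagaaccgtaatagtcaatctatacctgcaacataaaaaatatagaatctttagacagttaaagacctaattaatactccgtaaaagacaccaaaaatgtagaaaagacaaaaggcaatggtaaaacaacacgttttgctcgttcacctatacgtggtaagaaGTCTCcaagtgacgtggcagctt
APR2: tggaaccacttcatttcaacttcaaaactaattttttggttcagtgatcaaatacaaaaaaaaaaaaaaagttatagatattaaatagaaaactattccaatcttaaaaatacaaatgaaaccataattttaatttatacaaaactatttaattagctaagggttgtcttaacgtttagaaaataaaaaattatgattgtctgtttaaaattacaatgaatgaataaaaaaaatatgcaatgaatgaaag
SULTR1;1: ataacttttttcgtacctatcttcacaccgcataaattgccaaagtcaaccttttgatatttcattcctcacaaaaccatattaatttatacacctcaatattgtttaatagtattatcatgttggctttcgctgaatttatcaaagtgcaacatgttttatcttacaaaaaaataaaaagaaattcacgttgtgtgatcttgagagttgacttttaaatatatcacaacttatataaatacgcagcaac
The core began 23 bases before the SDI1 start and 115 bases before the BGLU28 start, so 2 of 10 members held it, against 25.8% of 27444 promoters of the same length. The PHR1 binding motif P1BS (GNATATNC) was in 0 of 10 and in 5.46% of all promoters, and the G-box (CACGTG) in 0 of 10 and in 6.49%. Both strands were searched, the 3 motifs do not share a match in these promoters, and a match or its absence in this window describes letters only.

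Within families the coding sequences held short identical stretches, and sharing of reads between members was not tested. APR1 and APR3 were 80.1% identical over their coding bases, with a longest identical run of 41 bases, and APR2 was 72.7% identical to APR1 and 71.8% to APR3. SDI1 and SDI2 were 62.4% identical and LSU1 and LSU2 71.6%, with longest identical runs of 17 and 14 bases. The nearest relatives outside the set were closer for 3 members: LSU4 was 87.0% identical to LSU2, LSU3 80.7% to LSU1, and SULTR4;1 80.7% to SULTR4;2. The libraries were not stranded, so reads from a member and from a transcript on the other strand could not be told apart.

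Total counts ran from 692426 to 6883818 per library (median 3789735 over 71), and the shallowest group was Col-0 at high Pi with MeJA. PHR1 was lower in every mutant group (means of 22.4 to 29.1 CPM, counts scaled to a common library size) than in every Col-0 group (56.9 to 67.9 CPM), whereas PHL1 transcript was higher in the mutant groups (56.0 to 90.1 CPM against 10.4 to 15.7 CPM), which goes against a loss of transcript. The jasmonate marker VSP2 averaged 325 to 504 CPM in the MeJA groups and 0.559 to 2.90 CPM elsewhere. One library with the label of the untreated mutant at high Pi, replicate B1, held 68.6 CPM of PHR1, 20.3 CPM of PHL1 and 212 CPM of VSP2, against its label, and was left out of every value below unless it is named, so that this group has 5 libraries. CPM values use library sizes scaled by the trimmed mean of M-values (TMM), and 9 of the 10 members, all but BGLU28, had enough counts to be tested, as had 18693 of all loci.

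Levels spanned a wide range among the members. Per kilobase of transcript, in untreated Col-0 at high Pi in experiment A, APR2 led with 411 ± 55.1 CPM per kb (SD, n = 3), followed by APR3 at 188 ± 31.8, APR1 at 133 ± 22.3, LSU2 at 72.4 ± 5.18 and SDI2 at 38.6 ± 7.18. The spreads of LSU1 (10.9 ± 1.97 CPM per kb) and SDI1 (8.94 ± 1.39) overlapped. SULTR4;2 (4.01 ± 1.42), SULTR1;1 (0.734 ± 0.435) and BGLU28 (0.326 ± 0.372) were lowest, and the last pair also overlapped. In experiment B the same group gave lower levels for 9 of the 10 members, for instance 119 ± 17.7 CPM per kb for APR2 and 10.96 ± 3.97 for LSU2, and SULTR4;2 was the exception at 4.58 ± 0.757.

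**Figure D1:**
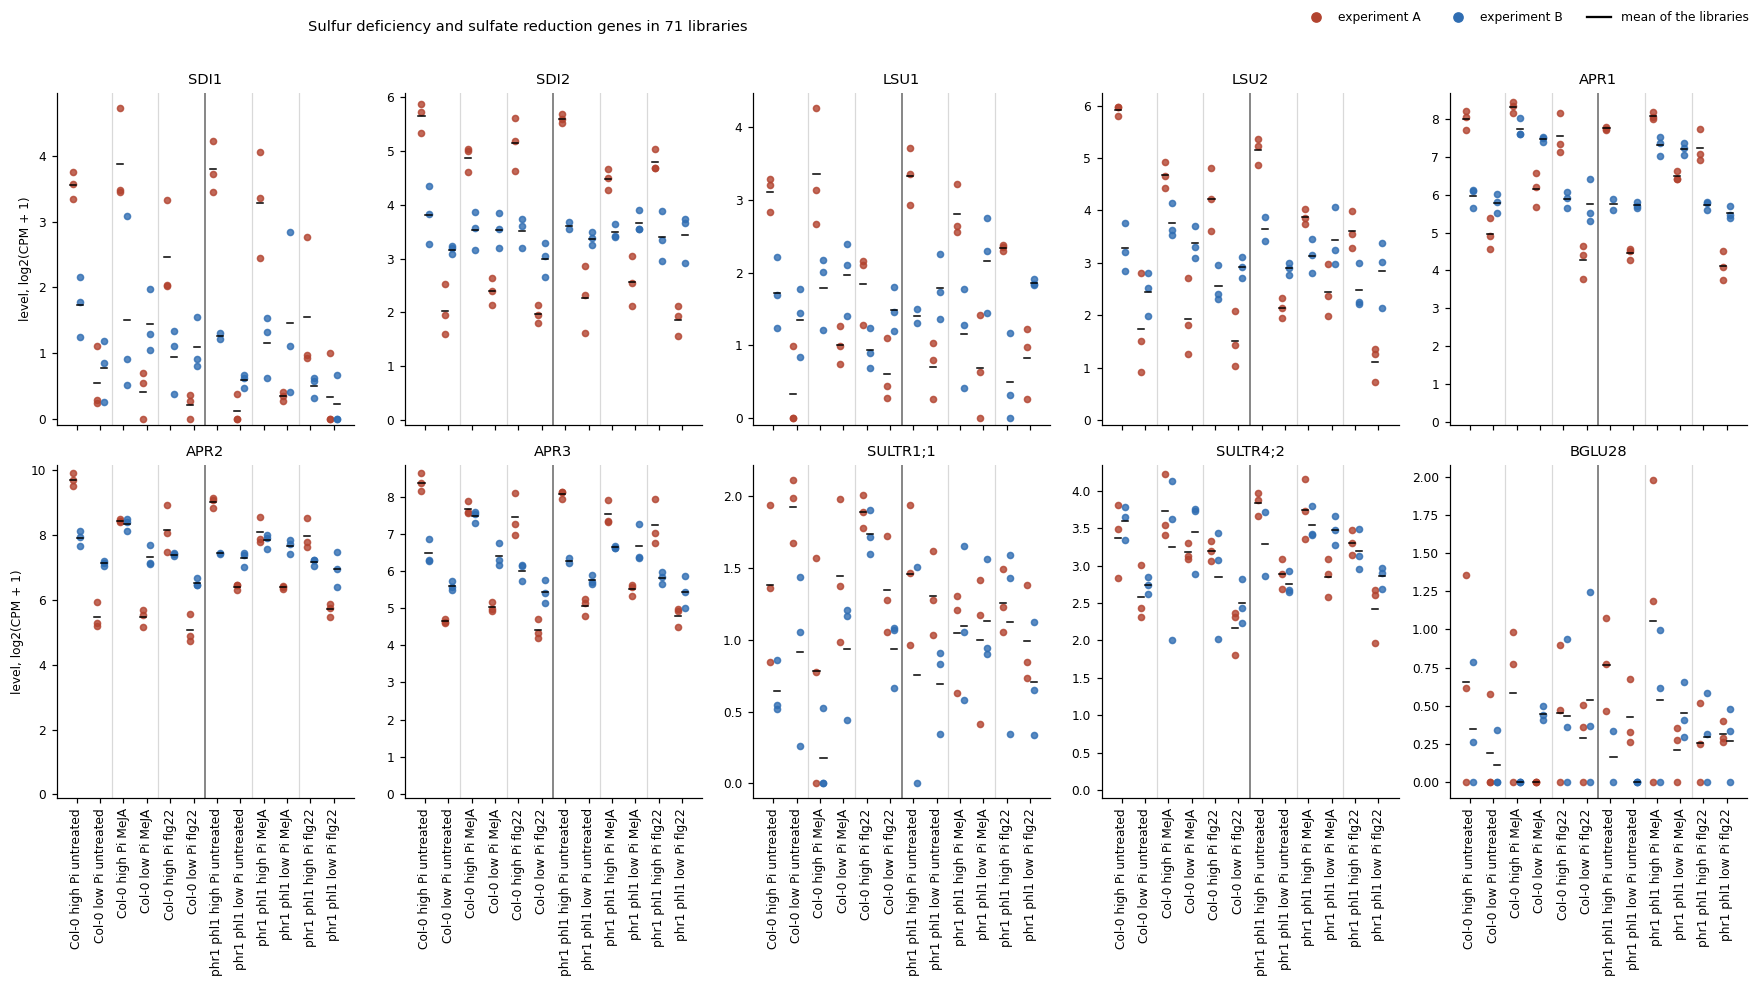
Level of each of the 10 members, as log2(CPM + 1), in all 71 libraries, with a point for each library, a colour for each experiment and a bar at the mean of a group's libraries in an experiment; each gene has its own axis. In untreated Col-0 APR2 falls from 734 to 959 CPM at high Pi to 36.1 to 59.8 CPM at low Pi in A, and from 204 to 277 CPM to 133 to 147 CPM in B.

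In untreated Col-0 the sulfur deficiency and sulfate reduction genes were lower at low than at high phosphate. Of the 9 members tested, 8 fell (edgeR quasi-likelihood test, Benjamini-Hochberg adjusted p under 0.05 over all genes tested), where 8.46% of all genes tested fell, and the median log2 change was -2.49 against -0.01 over all genes. The falls covered the repressor genes SDI1 and SDI2, both LSU genes, all 3 APS reductases and the vacuolar exporter SULTR4;2. The size of the response depended on the experiment for most of them, as described further below.

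SDI1 and SDI2 encode tetratricopeptide proteins that repress the glucosinolate regulator MYB28 when sulfur is short. SDI1 stood at 9.15, 12.5 and 10.9 CPM in the 3 high Pi libraries of experiment A and at 2.44, 1.37 and 3.47 CPM in those of experiment B. At low Pi it stood at 0.221, 0.183 and 1.16 CPM in A and at 1.28, 0.808 and 0.196 CPM in B. All 6 low Pi libraries lay below all 6 high Pi libraries, and the log2 change was -3.44 ± 0.77 (SE, adjusted p = 0.00131, edgeR). SDI2 fell from 57.3, 51.9 and 39.3 CPM to 2.88, 2.01 and 4.79 CPM in A, and from 19.3, 13.2 and 8.69 CPM to 8.13, 8.35 and 7.46 CPM in B. Its groups did not overlap either, although in B the gap was narrow, and the log2 change was -2.48 ± 0.49 (adjusted p = 0.000304, edgeR).

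LSU1 and LSU2 encode small coiled-coil proteins that bind many partners and accumulate when sulfur is short. LSU2 counted 54.7, 62.2 and 61.9 CPM at high Pi in A and 12.6, 8.22 and 6.22 CPM in B. At low Pi it counted 0.885, 1.83 and 5.95 CPM in A and 5.99, 2.96 and 4.71 CPM in B. The low Pi values of both experiments lay in one range below every high Pi value, and the log2 change was -3.14 ± 0.53 (adjusted p = 3.3e-05, edgeR). LSU1 went from 6.10, 8.72 and 8.24 CPM to 0, 0 and 0.991 CPM in A, while in B 2.24, 1.37 and 3.62 CPM stood against 1.71, 2.42 and 0.785 CPM. Its groups overlapped because of experiment B, and the log2 change over both was -2.49 ± 0.70 (adjusted p = 0.0103, edgeR).

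The 3 reductases all fell. APR2, the isoform that carries most of the reductase activity in Arabidopsis seedlings, stood at 832, 959 and 734 CPM at high Pi in A and at 277, 247 and 204 CPM in B. At low Pi it stood at 36.1, 38.6 and 59.8 CPM in A and at 142, 147 and 133 CPM in B. The groups did not overlap, and the order of the experiments was turned round, with A above B at high Pi and below B at low Pi. Its log2 change was -2.70 ± 0.45 (adjusted p = 2.17e-05, edgeR). APR3 went from 329, 394 and 281 CPM to 23.2, 23.6 and 25.3 CPM in A and from 115, 78.1 and 76.3 CPM to 44.1, 52.2 and 46.7 CPM in B, again without overlap (-2.52 ± 0.44, adjusted p = 5.73e-05, edgeR). APR1 went from 265, 295 and 210 CPM to 22.8, 29.2 and 40.8 CPM in A, but in B 66.9, 49.3 and 69.0 CPM at high Pi stood against 44.9, 55.5 and 63.6 CPM at low Pi. For APR1 the groups overlapped in B, and the log2 change over both experiments was -1.85 ± 0.47 (adjusted p = 0.00465, edgeR).

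The transporters did not move together. SULTR4;2, which releases sulfate from the vacuole, stood at 10.2, 12.97 and 6.11 CPM at high Pi in A and at 11.6, 9.13 and 12.7 CPM in B, and at 7.08, 4.39 and 3.96 CPM and 5.14, 6.19 and 5.69 CPM at low Pi. 2 of the 6 low Pi libraries, at 7.08 and 6.19 CPM, exceeded the lowest high Pi library, and the log2 change was -0.98 ± 0.22 (adjusted p = 0.00112, edgeR). SULTR1;1, a high-affinity uptake transporter of the root, stood at 0.434 to 2.83 CPM at high Pi (median 0.805) and at 0.196 to 3.32 CPM at low Pi (median 1.95), ranges that overlapped almost wholly (0.68 ± 0.41, adjusted p = 0.274, edgeR). BGLU28, a β-glucosidase that breaks down glucosinolates when sulfur is short, never exceeded 2.93 CPM in any library and stood at 0 to 1.57 CPM at high Pi and at 0 to 0.496 CPM at low Pi in untreated Col-0. Without the filter on low counts its lowest adjusted p over all comparisons was 0.203.

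Whole seedlings hold several organs, and in such bulk samples fewer cells of a type and less RNA per cell cannot be told apart. Of 9 tested root endodermis and root hair markers 7 rose at low Pi in untreated Col-0, where 7.07% of all genes rose, and their summed level went from 110 to 168 CPM at high Pi to 167 to 333 CPM at low Pi. In untreated phr1 phl1, whose members are described further below, 0 of the 9 root markers were called and the sums were 100.4 to 162 CPM at high Pi and 79.0 to 168 CPM at low Pi. Of 10 markers of green tissue 2 rose and 1 fell in Col-0 and 1 rose and 4 fell in the mutant, and none of the markers was at 0 in any group. Their summed level was 60580 to 78890 CPM at high Pi and 57400 to 90430 CPM at low Pi in Col-0, and 42920 to 64310 CPM and 36200 to 63730 CPM in the mutant. The part of organ composition in the members' values was not tested.

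The low Pi response of most members was far larger in experiment A than in experiment B. Within A, 8 of 9 members fell, where 17.8% of all genes did, while within B 0 of 9 were called and 0.144% of all genes fell. In B 6 of the 9 were below an unadjusted p of 0.05, and the same edgeR test fitted to the B libraries alone called 2. Of all genes that fit called 105 of 18792, in either direction. The difference between the experiments was itself past the threshold for 6 of 9 members (SDI2, LSU1, LSU2, APR1, APR2 and APR3), each with the smaller fall in B, where 8.69% of all genes differed in that direction. For APR2 the log2 change was -4.22 ± 0.27 in A and -0.79 ± 0.24 in B (difference 3.44 ± 0.34, adjusted p = 1.41e-11, edgeR). For APR1 it was -3.04 ± 0.24 in A and -0.18 ± 0.24 in B (difference 2.86 ± 0.33, adjusted p = 1.29e-09). SULTR4;2 had close values in both, -0.96 ± 0.29 in A and -0.999 ± 0.298 in B (difference -0.04 ± 0.43, adjusted p = 0.98). SDI1 gave -4.21 ± 0.67 and -2.02 ± 0.87, with a difference of 2.19 ± 1.34 that did not pass (adjusted p = 0.311). What differed between the experiments besides their name is not given in the labels, so its part in these values was not tested.

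**Figure D2:**
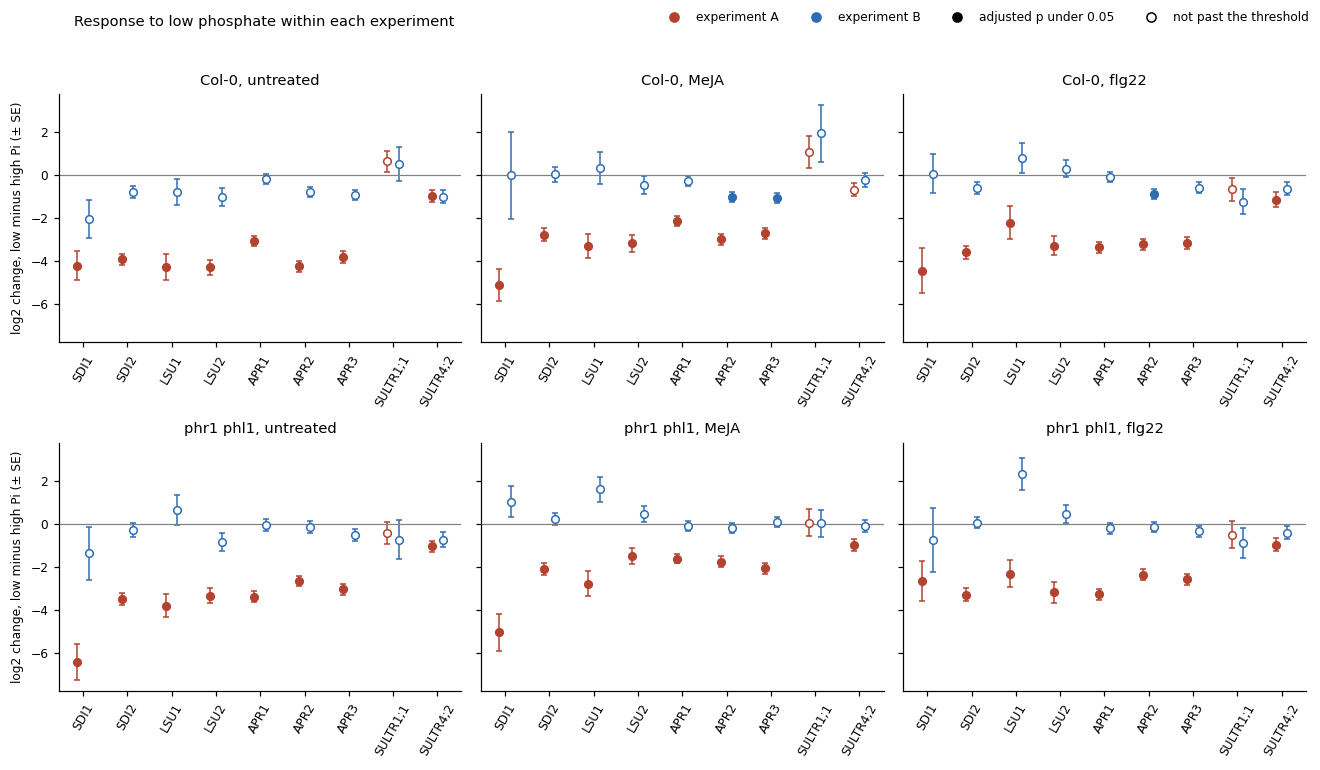
Log2 change at low against high Pi of the 9 tested members (points, with SE bars) within experiment A and within experiment B, in a panel for each genotype and treatment; filled points are past the threshold. In untreated Col-0 APR2 lies at -4.22 in A and at -0.79 in B, while SULTR4;2 lies at -0.96 and -0.999.

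In Col-0 fewer members were called lower at low Pi under MeJA and flg22 over both experiments than in untreated seedlings. The test of that difference, the Pi dependence of the MeJA or flg22 response, called 0 of 9 members for each agent. The counts therefore do not show a smaller response. SULTR1;1 was at 1.27 ± 0.64 under MeJA and at -0.93 ± 0.40 under flg22, neither called. Under MeJA 3 of 9 members fell in Col-0 (2.72% of all genes fell), namely SDI1 (-2.93 ± 0.77), APR2 (-1.80 ± 0.43) and APR3 (-1.68 ± 0.43, adjusted p = 0.0169, edgeR). Leaving out Col-0 low Pi MeJA library A1, A2 or A3 left 1 call, with SDI1 at adjusted p of 0.0726, 0.072 and 0.0573 and APR3 at 0.06, 0.0566 and 0.0527. Leaving out high Pi MeJA library A1 ended the SDI1 call (-2.32, adjusted p = 0.126), and leaving out low Pi MeJA B1 or B2 added LSU2 (adjusted p of 0.049 and 0.0402). Under flg22 5 of 9 fell (7.16% of all genes): SDI2 (-2.04 ± 0.51), APR1 (-1.68 ± 0.48), APR2 (-2.02 ± 0.44), APR3 (-1.90 ± 0.44) and SULTR4;2 (-0.86 ± 0.24). The APR1 call was lost without Col-0 high Pi flg22 library A1 (-1.31, adjusted p = 0.0616, edgeR).

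Within experiment A 7 of 9 members fell under MeJA (11.1% of all genes) and 8 of 9 under flg22 (13.1%). Within B 2 of 9 fell under MeJA, APR2 (-1.01 ± 0.24) and APR3 (-1.05 ± 0.25), where 0.0963% of all genes did, and 1 of 9 under flg22, APR2 (-0.87 ± 0.24), where 0.84% did. APR2 was therefore the member called within B in both treated Col-0 backgrounds. The difference between experiments, tested after the data had been seen, was past the threshold for 7 of 9 members under MeJA (4.54% of all genes) and for 5 of 9 under flg22 (4.81%), each with the higher log2 change in B. LSU1 under MeJA (0.36 ± 0.74) and LSU2 under flg22 (0.31 ± 0.40) had positive values in B, neither called.

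The members fell at low Pi in phr1 phl1 as well. In untreated mutant seedlings 8 of 9 fell, where 5.63% of all genes did, with a median log2 change of -2.02. DESeq2 called 7, without LSU1, and edgeR fitted to the 2 groups alone called 4 (SDI2, LSU2, APR3 and SULTR4;2) of 6 tested, with SDI1, LSU1 and SULTR1;1 below its count filter and APR1 and APR2 lost. Of all genes, in either direction, DESeq2 called 2580 of 18693 and the 2-group fit 2049 of 17323. SDI1 ranged from 1.31 to 17.9 CPM at high Pi (median 9.93, n = 5) and from 0 to 0.585 CPM at low Pi (median 0.344, n = 6), with no overlap. Its log2 change of -4.68 ± 0.89 (adjusted p = 0.000245, edgeR) was the largest of the set. APR2 ranged from 171 to 566 CPM at high Pi (median 463) and from 78.4 to 173 CPM at low Pi (median 108), ranges that touched because of experiment B, and changed by -1.80 ± 0.45 (adjusted p = 0.00495). SDI2 (-2.26 ± 0.50), LSU2 (-2.37 ± 0.54) and APR3 (-2.11 ± 0.45) also separated fully, while LSU1 (-2.02 ± 0.66), APR1 (-2.01 ± 0.50) and SULTR4;2 (-0.97 ± 0.22) overlapped. The LSU1 call did not survive the loss of any single library of experiment A: its adjusted p became 0.118, 0.0911 and 0.0526 without high Pi untreated A1, A2 and A3, and 0.113, 0.112 and 0.0772 without low Pi untreated A1, A2 and A3.

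In the mutant the low Pi response of most members was again larger in experiment A. Within A 8 of 9 members fell in untreated seedlings (13.9% of all genes), 8 of 9 under MeJA (5.09%) and 8 of 9 under flg22 (10.9%). Within B, where the untreated high Pi group has 2 libraries, 0 of 9 were called in all 3 backgrounds, and 0.123%, 0.139% and 0.0856% of all genes fell. In each background 1 member was below an unadjusted p of 0.05. The edgeR test fitted to the B libraries alone called 0 members, and 135, 291 and 58 of 18792 genes in either direction. Log2 changes in B were below 0 for 8 of 9 members untreated (median -0.528), for 3 under MeJA (0.109) and for 6 under flg22 (-0.203). The difference between experiments was past the threshold for 6 of 9 members untreated (6.38% of all genes), for 7 of 9 under MeJA (2.26%) and for 6 of 9 under flg22 (2.19%), the last 2 tested after the data had been seen. In B the LSU1 level was higher at low Pi with flg22 (2.75, 2.60 and 2.56 CPM) than at high Pi with flg22 (1.25, 0 and 0.243 CPM), without overlap, although the difference was not called (2.32 ± 0.74, adjusted p = 0.177, edgeR).

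Over both experiments the mutant gave 0 of 9 calls under MeJA, where 0.899% of all genes fell. The edgeR test left 4 members below an unadjusted p of 0.05, all lower at low Pi, and DESeq2 called 0, while a term for each group in each experiment gave 5 (1641 of 18693 genes were called in either direction). A single library decided one of them: without phr1 phl1 low Pi MeJA B1, in which SDI1 stood at 6.19 CPM against at most 1.15 CPM in the other 5, the SDI1 change moved from -1.47 to -3.54 and was called (adjusted p = 0.00677, edgeR). Under flg22 4 of 9 fell (5.53% of all genes), namely APR1 (-1.70 ± 0.48), APR2 (-1.26 ± 0.43), APR3 (-1.56 ± 0.43) and SULTR4;2 (-0.67 ± 0.22, adjusted p = 0.0411, edgeR). That count fell to 0 without high Pi flg22 A1 or low Pi flg22 A3, to 1 without low Pi flg22 A2, and to 2 without high Pi flg22 A2 or low Pi flg22 A1. Of the 12 libraries, leaving out 1 ended the APR2 call in 8 cases, which besides these were high Pi flg22 A3 and low Pi flg22 B2 and B3, and the SULTR4;2 call in 7, which besides these were high Pi flg22 B1 and low Pi flg22 B2. Fitting the 2 groups alone gave 2 calls, where 3102 of 17107 genes were called in either direction. SDI2 was called as well without high Pi flg22 B2 or B3 or low Pi flg22 B1 or B2 (adjusted p of 0.0493, 0.0416, 0.0211 and 0.0362, edgeR).

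No member was called different between the genotypes by the fit over all groups and both experiments, in level or in low Pi response. In each of the 6 comparisons of phr1 phl1 with Col-0, 0 of 9 members were called by edgeR and 0 by DESeq2, and SULTR1;1 at high Pi with flg22 (-0.87 ± 0.39) was the one value below an unadjusted p of 0.05. Fitted to the 2 groups compared alone, edgeR called 1 member in 4 of the 6: APR2, lower in the mutant at high Pi untreated and higher at low Pi untreated and with MeJA, and LSU2, lower at high Pi with MeJA. A term for each group in each experiment called APR2 at low Pi with MeJA (1453 of 18693 genes). Of all genes these 2-group fits called 105 of 17685 (high Pi) and 778 of 17340 (low Pi) untreated, and 112 of 16527 and 911 of 16937 with MeJA. The fit over all groups called 0.0642% (high Pi) and 3.69% (low Pi) of all genes in untreated seedlings, 0.134% and 4.96% under MeJA, and 0.177% and 0.476% under flg22. The genotype dependence of the untreated low Pi response was called for 0 of 9 members by edgeR and by DESeq2, with 0 below an unadjusted p of 0.05 (0.519% of all genes were called), and for 1 with a term for each group in each experiment. The SE of that difference ran from 0.30 for SULTR4;2 to 1.41 for SDI1 on the log2 scale, so a miss of the threshold does not show equal responses.

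Within experiment A APR2 was the only member called between the genotypes in the 6 comparisons. At low Pi it stood at 86.7, 78.4 and 86.5 CPM in untreated phr1 phl1 and at 36.1, 38.6 and 59.8 CPM in untreated Col-0, all mutant libraries higher. It was the 1 of 9 members called higher there (0.90 ± 0.25, adjusted p = 0.0182, edgeR, where 3.09% of all genes rose). It was also the 1 of 9 called under MeJA at low Pi (0.91 ± 0.25, adjusted p = 0.0316, where 1.65% rose). Fitting the A libraries alone with the same edgeR test called 0 members in both of these comparisons. Of all genes that fit called 1057 of 18913 (untreated) and 409 of 18913 (MeJA). At high Pi the order was the opposite, with 566, 539 and 463 CPM in the mutant below 832, 959 and 734 CPM in Col-0 (-0.69 ± 0.23, not called, adjusted p = 0.151). Other members also separated fully within A without a call: APR3 was higher in the mutant at low Pi untreated and with MeJA and lower at high Pi untreated, LSU2 was lower at high Pi untreated and with MeJA, APR1 and SULTR1;1 were lower at low Pi untreated, and at high Pi with flg22 SULTR1;1 was lower and LSU1 higher. Separation was not counted over all genes and is common between groups this small, so this list is a description and not a sign of genotype differences. The fall of APR2 within A was accordingly -2.64 ± 0.25 in the mutant and -4.22 ± 0.27 in Col-0, a difference of 1.58 ± 0.34 (adjusted p = 0.00301, edgeR, where 2.36% of all genes differed), and in B the same difference was 0.65 ± 0.36 (adjusted p = 1).

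APR1 was higher with MeJA at low Pi in both genotypes. The MeJA and flg22 comparisons share the untreated libraries as controls. In Col-0 at low Pi APR1 stood at 22.8, 29.2 and 40.8 CPM untreated and at 94, 73.2 and 50.1 CPM with MeJA in A, and at 44.9, 55.5 and 63.6 CPM against 184, 166 and 181 CPM in B. No MeJA library overlapped the untreated libraries of its own experiment, and the log2 change was 1.56 ± 0.46 (adjusted p = 0.014, edgeR). SULTR4;2 also rose there (0.78 ± 0.22, adjusted p = 0.00933), which made 2 of 9 members where 8.21% of all genes rose. In phr1 phl1 at low Pi APR1 was the 1 of 9 that rose (1.73 ± 0.47, adjusted p = 0.00574, where 9.97% of all genes rose). Without phr1 phl1 low Pi MeJA A1 SDI1 was called as well (3.10, adjusted p = 0.043), and without low Pi MeJA B1 its change was 0.60.

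At high Pi 0 of 9 members were called for MeJA over both experiments in either genotype by edgeR and by DESeq2, where 7.71% (Col-0) and 9.92% (phr1 phl1) of all genes rose. Fitting the 2 groups alone, or a term for each group in each experiment, gave 2 calls in Col-0 and 3 in phr1 phl1. Of all genes, in either direction, the 2-group fits called 2485 of 15634 in Col-0 and 3777 of 17684 in phr1 phl1. The fit with a term for each group in each experiment called 3147 and 4168 of 18693. In Col-0 0 members were below an unadjusted p of 0.05 and in phr1 phl1 2 were, SDI2 (-1.01 ± 0.44) and LSU2 (-1.21 ± 0.47), both lower; LSU2 was called without phr1 phl1 high Pi untreated B3 (-1.40, adjusted p = 0.0406, edgeR). Behind these totals the experiments went different ways. Within A 4 of 9 fell in Col-0 (SDI2, LSU2, APR2 and APR3; 5.11% of all genes fell) and 3 of 9 in the mutant (SDI2, LSU2 and APR2; 6.49%). Within B none fell and APR1 rose in both genotypes, 1.76 ± 0.24 in Col-0 and 1.57 ± 0.27 in phr1 phl1, with APR3 beside it in Col-0 (0.97 ± 0.25). That made 2 of 9 in Col-0, where 6.14% of all genes rose, and 1 of 9 in the mutant, where 8.1% did.

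APR2 showed this in every library. Untreated Col-0 at high Pi stood at 832, 959 and 734 CPM in A and at 277, 247 and 204 CPM in B, and with MeJA at 344, 364 and 336 CPM in A and at 359, 339 and 282 CPM in B. The MeJA libraries of the 2 experiments were thus close to each other while the untreated ones were not. The difference between experiments in the MeJA response at high Pi was past the threshold for 3 of 9 members in Col-0 (APR1, APR2 and APR3, each higher in B, where 0.588% of all genes were) and for 1 of 9, APR2, in the mutant (1.32, adjusted p = 0.0478, where 0.342% were). At low Pi the experiments ran together for APR1, which rose in all 4 within-experiment comparisons there: by 1.23 ± 0.24 in A and 1.68 ± 0.23 in B in Col-0, and by 2.098 ± 0.249 and 1.52 ± 0.24 in phr1 phl1. APR1 was the 1 of 9 that rose within A in Col-0 (6.67% of all genes) and in phr1 phl1 (6.04%). Within B 3 of 9 rose in Col-0 (APR1, APR3 and SULTR4;2; 7.06%) and 2 of 9 in phr1 phl1 (APR1 and APR3; 10.4%).

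**Figure D3:**
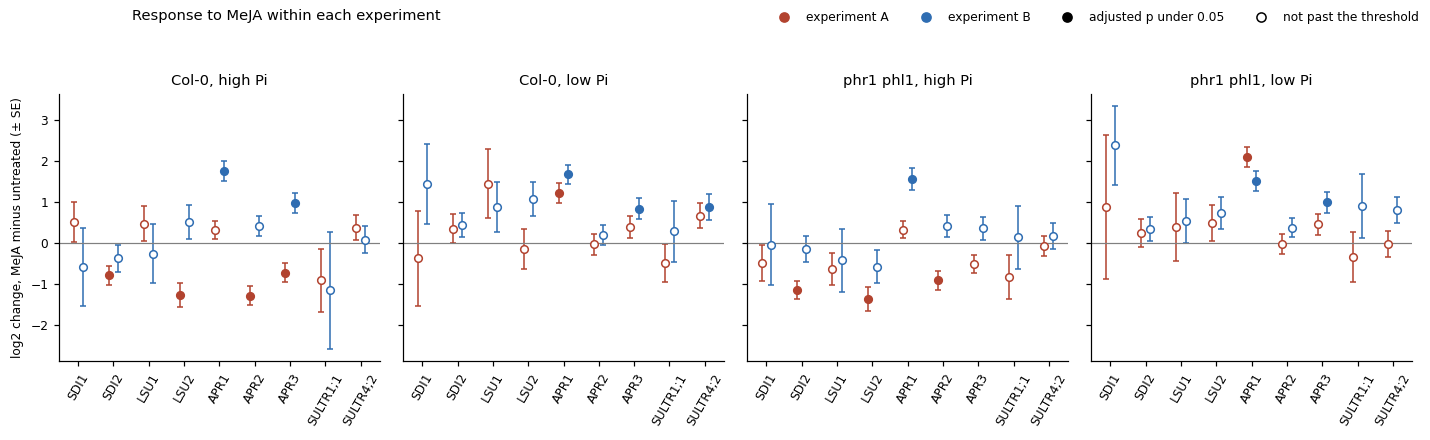
Log2 change with MeJA against untreated of the 9 tested members (points, with SE bars) within each experiment, in a panel for each genotype and Pi level; filled points are past the threshold. APR1 at low Pi is filled in both experiments and both genotypes, and APR2 in Col-0 at high Pi lies at -1.27 in A.

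No dependence of the MeJA response on Pi level or genotype was called for a member over both experiments. In the 4 tests 0 of 9 members were called by edgeR, and over all genes 0.0107% (Pi dependence, Col-0), 0.0% (Pi dependence, phr1 phl1), 0.0% (genotype dependence, high Pi) and 0.016% (genotype dependence, low Pi) were called. The Pi dependence in phr1 phl1 had 4 of 9 members below an unadjusted p of 0.05 and DESeq2 called 0, and the other 3 tests had 0 in all with 0 called by DESeq2. Within A the Pi dependence was called for APR2 in Col-0 (1.25 ± 0.34, adjusted p = 0.0396, edgeR, where 1.79% of all genes were called) and for APR1 in phr1 phl1 (1.76 ± 0.33, adjusted p = 0.000613, where 1.39% were). Fitting the A libraries alone with the same edgeR test called 0 members for this dependence in Col-0 and 1 in phr1 phl1.

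In the fit over all groups flg22 gave few calls among the members, all of them lower and all at high Pi. In phr1 phl1 at high Pi 2 of 9 fell, SDI1 (-2.29 ± 0.66, adjusted p = 0.0277, edgeR) and LSU2 (-1.61 ± 0.49, adjusted p = 0.0434), where 1.45% of all genes fell; DESeq2 called 0. LSU2 stood at 36.7, 40.2 and 28.0 CPM untreated and at 14.9, 10.7 and 8.75 CPM with flg22 in A, and at 13.6 and 9.73 CPM against 7.02, 3.77 and 3.64 CPM in B, lower in each experiment without overlap. Both calls were lost without untreated A1 or A2 or flg22 A2, A3 or B1, and the LSU2 call also without untreated A3 or flg22 B2 or B3, with LSU2 at adjusted p between 0.0654 and 0.145. In Col-0 at high Pi 0 of 9 were called by edgeR or DESeq2 (0.316% of all genes fell), with 6 below an unadjusted p of 0.05: SDI1, LSU1, LSU2, APR2 and SULTR4;2 lower and SULTR1;1 higher. Fitting the 2 groups alone gave 2 calls (131 of 17500 genes in either direction), and a term for each group in each experiment 4 (939 of 18693). Without Col-0 high Pi flg22 A1, whose APR2 level of 493 CPM stood apart from 163 to 269 CPM in the other 5, APR2 (-1.61, adjusted p = 0.0411) and LSU2 (-1.84, adjusted p = 0.0369) were called, and without high Pi untreated B3 LSU2 was (-1.78, adjusted p = 0.0227).

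Within experiment A 4 of 9 members fell with flg22 in Col-0 at high Pi (LSU1, LSU2, APR2 and APR3; 3.81% of all genes fell) and 5 of 9 in phr1 phl1 (SDI1, SDI2, LSU2, APR2 and APR3; 3.12%). APR2 changed by -1.44 ± 0.23 in Col-0 and by -0.99 ± 0.23 in the mutant. Within B 0 of 9 were called by edgeR in either genotype, with 6 members in Col-0 and 1 in phr1 phl1 below an unadjusted p of 0.05. With B fitted alone 0 were called, where that fit called 50 (Col-0) and 204 (phr1 phl1) of 18792 genes in either direction. The difference between experiments was called for 0 of 9 members in Col-0 (1.33% of all genes were higher in B) and for 0 of 9 in phr1 phl1 (0.487%), with 2 and 1 below an unadjusted p of 0.05 and 0 and 0 called by DESeq2.

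At low Pi flg22 gave 0 of 9 calls by edgeR and by DESeq2 in both genotypes (1.66% of all genes fell in Col-0 and 1.17% in phr1 phl1). There 0 members were below an unadjusted p of 0.05, although the 2 Col-0 groups fitted alone gave 1 call (874 of 17196 genes were called in either direction). The Pi dependence of the flg22 response was called for 0 of 9 members in Col-0 (0.0107% of all genes) and in phr1 phl1 (0.016%), and the genotype dependence for 0 of 9 at high Pi (0.0%) and at low Pi (0.016%). Across these 4 tests 3 values were below an unadjusted p of 0.05 and DESeq2 called 0. SULTR1;1 in Col-0 was among them: its level with flg22 at high Pi was 3.02, 2.44 and 2.71 CPM in A and 2.74, 2.03 and 2.29 CPM in B, against 0.434 to 2.83 CPM untreated (Pi dependence -1.61 ± 0.57, adjusted p = 0.486, edgeR).

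Other genes of the sulfate pathway were taken from lists chosen with earlier results of these data known. At low Pi in untreated Col-0 4 of 5 other sulfur deficiency genes fell: LSU3 (-4.41 ± 0.90), GGCT2;1 (-3.48 ± 0.70), which breaks down glutathione, and SHM7 (-1.30 ± 0.36), a serine hydroxymethyltransferase, had the largest changes. Among 9 other sulfate transporters 3 fell, SULTR3;1 (-0.999 ± 0.311), SULTR1;2 (-0.69 ± 0.23) and SULTR2;2 (-0.63 ± 0.20), and among 9 activation and reduction partners 3 fell and 2 rose. The ATP sulfurylases APS2 (-0.61 ± 0.13), APS3 (-0.57 ± 0.21) and APS1 (-0.36 ± 0.12) were lower, and APS4 (0.48 ± 0.13) and the APS kinase APK4 (0.73 ± 0.26) higher. In cysteine and glutathione synthesis 1 of 10 fell, the serine acetyltransferase SERAT3;2 (-3.39 ± 0.54), and the median of that list was -0.02. Both genes of sulfolipid synthesis, which replaces phospholipid in plastid membranes, rose: SQD2 by 1.74 ± 0.25 and SQD1 by 0.99 ± 0.19. Within experiment A 4 of 5 other sulfur deficiency genes, 4 of 9 transporters and 6 of 9 partners fell, where 17.8% of all genes did. In cysteine and glutathione synthesis 1 of 10 fell and 1 rose there, and 2 partners rose. Within B no gene of these 4 lists was called, where 0.144% of all genes fell. Both sulfolipid genes rose in each experiment, where 2823 (A) and 86 (B) of 18693 genes rose.

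In phr1 phl1 the counts at low Pi were 3 of 5 other sulfur deficiency genes lower, 3 of 9 transporters lower, 3 partners lower and 2 higher of 9, 0 of 10 in cysteine and glutathione synthesis and 2 of 2 sulfolipid genes higher. SERAT3;2 changed by -0.71 ± 0.53 there (adjusted p = 0.41, edgeR). These lists are of unequal size, so their counts over both experiments are read against the shares of all genes (8.46% lower and 7.07% higher in Col-0, 5.63% lower and 6.65% higher in phr1 phl1).

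Under MeJA many genes around the members rose. In Col-0 at high Pi 5 of 9 partners rose, led by APK2 (1.84 ± 0.20), APS3 (1.83 ± 0.20) and APK1 (1.45 ± 0.18), and none fell. Of cysteine and glutathione synthesis 6 of 10 rose, led by the glutathione synthetase GSH2 (1.23 ± 0.10), the glutamate-cysteine ligase GSH1 (1.08 ± 0.09) and the cysteine synthase OASC (0.99 ± 0.10), and none fell. Of 9 other transporters 2 rose, SULTR4;1 (1.47 ± 0.14) and SULTR2;1 (0.87 ± 0.12), and 0 of 5 other sulfur deficiency genes did. The counts in the other 3 backgrounds were close: 5, 7 and 5 of 9 partners, 6, 6 and 7 of 10 for cysteine and glutathione, and 4, 3 and 3 of 9 transporters in Col-0 at low Pi, phr1 phl1 at high Pi and phr1 phl1 at low Pi. Of all genes 7.71% rose in Col-0 at high Pi, and 8.21%, 9.92% and 9.97% in these 3 backgrounds. At high Pi in Col-0 the median log2 change was 0.84 for the partners, 0.66 for cysteine and glutathione synthesis and -0.12 for the members, against -0.03 over all genes.

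**Figure D4:**
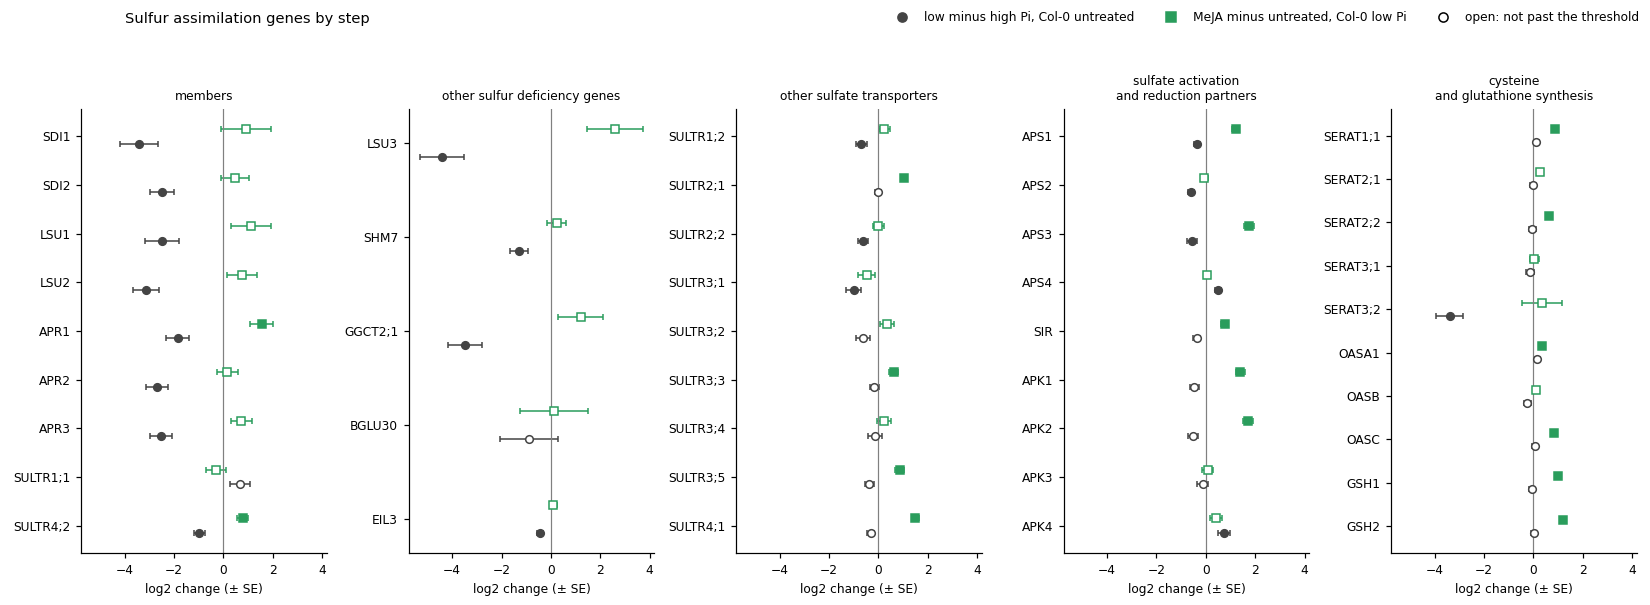
Log2 changes (with SE bars) of the members and of the other pathway genes in Col-0, at low against high Pi in untreated seedlings (circles) and with MeJA against untreated at low Pi (squares), open where not past the threshold. At low Pi 8 of the 9 tested members lie to the left of 0, with APR2 at -2.70. The partners APS3 and APK2 lie to the right with MeJA, at 1.73 and 1.71.

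Across the 24 combinations of group and experiment the members resembled one another, apart from SULTR1;1 and BGLU28. The Pearson correlation of a member's mean log2 CPM with the mean of the other members was 0.949 for APR3, 0.941 for SDI2, 0.936 for SDI1, 0.928 for LSU2, 0.888 for APR2, 0.86 for APR1, 0.844 for LSU1 and 0.786 for SULTR4;2, but 0.592 for BGLU28 and -0.07 for SULTR1;1. The combinations share libraries' depth and experiment, so these values are descriptions. Of all genes outside the set with a mean of at least 1 on the log2 CPM scale, 4CL3 (AT1G65060, r = 0.966), a 4-coumarate ligase, and TT5 (AT3G55120, 0.944), the chalcone isomerase, followed the mean member profile best. SHM7 (AT1G36370, 0.936), the methionine adenosyltransferase MAT3 (AT2G36880, 0.935), AT3G15650 (0.931), the phospholipase NPC6 (AT3G48610, 0.93), NTMC2T5.2 (AT3G19830, 0.929), the granule-bound starch synthase GBSS1 (AT1G32900, 0.929), SHM4 (AT4G13930, 0.927) and AT3G03770 (0.925) came next. These genes were chosen for this likeness over means that include low and high Pi, so a fall at low Pi is part of the choice. Their log2 change in untreated Col-0 ran from -0.67 for NTMC2T5.2 to -2.97 for AT3G15650, as a description.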

How the data were processed

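RNA of whole Arabidopsis seedlings was sequenced from poly(A)-selected, non-stranded libraries, per the labels' protocols. Per the submitters' processing notes, TAIR10 was the build, and the tools listed are TopHat2 2.1.1, HTSeq 0.6.1p1, cutadapt 1.3 and CASAVA 1.8. The values deposited by the authors are raw counts per locus, whole numbers with no normalization. The members and the other gene lists were chosen with earlier results of these data known. The named genes were all 10 members, up to 3 genes per direction of each other list, PHR1, PHL1 and VSP2 as checks of the labels, and the 10 genes most alike in profile.

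Counts were tested with edgeR 4.0.16 (limma 3.58.1, R 4.3.3): TMM scaling, filterByExpr with a minimum count of 10, robust quasi-likelihood fit with 12 group terms and an experiment term over 71 libraries, Benjamini-Hochberg adjustment over 18693 genes, threshold 0.05. Values within an experiment, and differences between experiments (B minus A), came from a model with a term for each of the 24 combinations of group and experiment; 4 of these differences were added after seeing the data. Fold changes are log2 with SE. On simulated counts for untreated Col-0 at low against high Pi, run on 18417 genes, 89.9% of genes changed 2-fold and 99% of those changed 4-fold were recovered, and 0.038% of unchanged genes were called. The simulation gave all genes the same dispersion, no difference between experiments and the same change in both. These shares therefore check the code and do not measure recovery or false calls for the members, whose response differed between experiments. Alternatives were DESeq2 1.42.0, its size factors, no filter, a replicate block, all 72 libraries, each experiment alone, no experiment term, only the groups compared, and each library left out. Replicates of a group differed by more than counting noise (175 pairs, lowest chi-square per degree of freedom 1.73). Promoters and coding sequences came from RefSeq TAIR10.1 and were read with Biopython 1.88. Proteins were not used here.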

Additional observations from a re-analysis of the deposited data

Results flagged for a closer look

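In 9 of the 120 combinations of member and group a single library stood apart from the other libraries of its group by Dixon's criterion. Chance meets it in about 1 group in 20 where all values come from a single population. These groups pool 2 experiments with different levels, so the 9 are not read against that rate. SDI1 stood at 9.05 CPM in Col-0 high Pi flg22 A1 (next 3.10), at 5.83 CPM in phr1 phl1 high Pi flg22 A1 (next 0.956) and at 6.19 CPM in phr1 phl1 low Pi MeJA B1 (next 1.15). APR2 stood at 282 CPM in Col-0 high Pi MeJA B3 (next 336), at 378 CPM in phr1 phl1 high Pi MeJA A2 (next 259) and at 493 CPM in Col-0 high Pi flg22 A1 (next 269). SULTR1;1 stood at 1.96 CPM in Col-0 high Pi MeJA A1 (next 0.709), SULTR4;2 at 3.04 CPM in Col-0 high Pi flg22 B1 (next 7.32), and BGLU28 at 1.37 CPM in Col-0 low Pi flg22 B3 (next 0.417).

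The log2 response differed between the experiments, by the test of the difference in edgeR, in 41 combinations of member and comparison, and all 41 were higher in B. For low against high Pi in untreated Col-0 the difference was 3.13 for SDI2, 3.49 for LSU1, 3.26 for LSU2, 2.86 for APR1, 3.44 for APR2 and 2.88 for APR3. In untreated phr1 phl1 it was 3.21 for SDI2, 4.45 for LSU1, 2.49 for LSU2, 3.33 for APR1, 2.50 for APR2 and 2.50 for APR3. Under MeJA in Col-0 it was 5.09 for SDI1, 2.82 for SDI2, 3.65 for LSU1, 2.72 for LSU2, 1.87 for APR1, 1.97 for APR2 and 1.64 for APR3. Under MeJA in phr1 phl1 it was 6.08 for SDI1, 2.31 for SDI2, 4.38 for LSU1, 1.93 for LSU2, 1.51 for APR1, 1.57 for APR2 and 2.18 for APR3. Under flg22 in Col-0 it was 2.98 for SDI2, 3.57 for LSU2, 3.27 for APR1, 2.34 for APR2 and 2.57 for APR3. Under flg22 in phr1 phl1 it was 3.35 for SDI2, 4.63 for LSU1, 3.64 for LSU2, 3.06 for APR1, 2.19 for APR2 and 2.23 for APR3. For MeJA against untreated at high Pi it was 1.45 for APR1, 1.70 for APR2 and 1.69 for APR3 in Col-0, and 1.32 for APR2 in phr1 phl1.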

How the results depend on the processing

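Counts below are of members called. Of all genes, for low Pi in untreated Col-0, 105 of 18792 were called in experiment B alone and 6390 of 18913 in experiment A alone. Member counts from different settings therefore stand against different shares of all genes. No count moved past 1.5 times with DESeq2's size factors in the edgeR fit or with the replicate block; replicate numbers did not pair the libraries in any of 20 comparisons (r of deviations from -0.231 to 0.279), and the block gave 8 calls at low Pi in untreated Col-0 as without it. Experiment B alone gave 2 at low Pi in untreated Col-0, 1 in Col-0 with flg22 and 0 in phr1 phl1 untreated and with flg22; for MeJA 2 in Col-0 and 1 in phr1 phl1 at high Pi and 3 in phr1 phl1 at low Pi; and for flg22 in phr1 phl1 at high Pi 0. LSU1 at low Pi in untreated phr1 phl1 changed sign there (0.63, adjusted p = 0.793, edgeR), and the cause was not tested. Experiment A alone gave 7 (Col-0 MeJA), 8 (Col-0 flg22), 8 (phr1 phl1 MeJA) and 7 (phr1 phl1 flg22) at low Pi, 3, 1 and 3 for MeJA in Col-0 high, Col-0 low and phr1 phl1 high Pi, 4 and 4 for flg22 at high Pi in Col-0 and phr1 phl1, and 1 each for the genotype dependence of the low Pi response and the Pi dependence of the MeJA response in phr1 phl1. A term for each group in each experiment gave 7 and 5 at low Pi with MeJA in Col-0 and phr1 phl1, 1 for genotype at low Pi with MeJA, 2, 3 and 2 for MeJA in Col-0 high, phr1 phl1 high and phr1 phl1 low Pi, 4 for flg22 in Col-0 at high Pi and 1 for the genotype dependence of the low Pi response. Fitting only the groups compared gave 4 and 2 at low Pi in phr1 phl1 untreated and with flg22, 1 for genotype in untreated seedlings at each Pi level and with MeJA at each, 2, 3 and 2 for MeJA in Col-0 high, phr1 phl1 high and phr1 phl1 low Pi, and 2, 1 and 5 for flg22 in Col-0 high, Col-0 low and phr1 phl1 high Pi. Without the filter there were 2 at low Pi in phr1 phl1 with flg22, 1 for flg22 in phr1 phl1 at high Pi, and 0 for the experiment dependence of the MeJA response in phr1 phl1. DESeq2 gave 0 for flg22 in phr1 phl1 at high Pi and 2 for that experiment dependence. Leaving out the experiment term gave 1 for flg22 in phr1 phl1 at high Pi, and all 72 libraries gave 0 for the experiment dependence. Leaving out 1 library at a time gave 8 to 8 calls at low Pi in untreated Col-0, 1 to 4 with MeJA and 4 to 5 with flg22, and in phr1 phl1 7 to 8, 0 to 1 and 0 to 5. For MeJA it gave 0 to 0 and 2 to 2 in Col-0 at high and low Pi and 0 to 1 and 1 to 2 in phr1 phl1, and for flg22 0 to 2 and 0 to 0 in Col-0 and 0 to 2 and 0 to 0 in phr1 phl1. The low counts of SDI1, LSU1, SULTR1;1 and BGLU28 limit their precision, and 2 experiments cannot say which response is the usual one.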

Other observations

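Replicate B1 of the untreated mutant at high Pi, the library left out, held 177 CPM of APR1, 258 CPM of APR2 and 143 CPM of APR3. It also held 2.90 CPM of SDI1, 12.4 CPM of SDI2, 3.17 CPM of LSU1 and 11.1 CPM of LSU2. SULTR1;1 stood at 0.791 CPM, SULTR4;2 at 15.3 CPM and BGLU28 at 2.11 CPM in it. In the 3 Col-0 high Pi MeJA libraries of experiment B APR1 stood at 261, 192 and 192 CPM, and in the 2 remaining libraries of its own label in B at 47.7 and 58.6 CPM.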
